A study of Homo sapiens with 7 samples.

Results

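Nitric oxide and cyclic GMP signalling was followed through 10 genes: DDAH1, DDAH2, PRMT1, NOS1, NOS3, NOS1AP, NPR1, NPR3, PRKG1 and PDE5A. They were taken by symbol from a table of 60234 genes, and all 10 were found. DDAH1 was picked because its level was lower after the MYH7B antisense treatment, so its difference between the groups is given as a description with no test. The other 9 genes were picked for their place in the pathway.

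Poly-A RNA came from cardiomyocytes grown from WTC-11, an established human induced pluripotent stem cell line, and matured for 35 days. For 96 h the cultures then received 2 uM of an antisense oligonucleotide (ASO). Such a molecule base-pairs with its target RNA, and here it was added without a transfection aid, per the labels. The scrambled ASO group had 3 libraries and the anti-MYH7B ASO group had 4, and both groups share the cell line, the maturation and the dose. The design used 1 cell line and 1 scrambled control, and the labels do not say whether the replicates were separate differentiations. The p-values therefore measure the spread between these libraries, which may be technical.

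Nitric oxide synthases make nitric oxide from arginine. PRMT1 and related enzymes methylate arginine in proteins, and the breakdown of those proteins frees asymmetric dimethylarginine, an inhibitor of the synthases that DDAH1 degrades. Nitric oxide activates soluble guanylyl cyclase and the natriuretic peptides activate the receptor cyclases NPR1 and NPR2, and both routes make cyclic GMP. Cyclic GMP switches on the kinase PRKG1, and phosphodiesterases such as PDE5A remove it. In heart muscle the pathway is known for tempering contraction, calcium cycling and growth.

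Levels are given as TPM, transcripts per 1000000, a measure scaled to transcript length that allows comparison between genes. Sequencing depth is unknown, because TPM keeps no depth and every column sums to 1000000. The deposited column of MYH7B ASO replicate 1 is out of row order, so the comparisons below use the other 6 libraries, 3 in each group, and the value of the reordered column is given beside the member genes and where it stands apart. Genes of the mitochondrial genome held 27.4% to 33.6% of TPM in those 6 and 17.2% in replicate 1. The other genes therefore share a larger part of the fixed sum in replicate 1, and its TPM values are printed without a correction for that. MYH7B itself was 23.0, 36.5 and 25.1 TPM with the scrambled ASO and 9.30, 5.65 and 6.31 TPM in MYH7B ASO replicates 2 to 4. MYH7B fell by 1.85 on the log2 scale (standard error 0.24, limma adjusted p = 0.0109), and without MYH7B ASO replicate 4 the limma adjusted p was 0.0618. With replicate 1, at 1.29 TPM, the limma adjusted p was 0.0525. Cardiomyocyte markers were present in every library: all 10 listed markers averaged above 1 TPM, and they summed to between 9671 and 10842 TPM with the scrambled ASO and between 8209 and 10520 TPM with the MYH7B ASO. In replicate 1 they summed to 7922 TPM. None of the 10 was called, and the groups did not overlap for 3 lower and 1 higher, beside 14.1% and 7.11% of all tested genes. At an unadjusted p under 0.05, 5 of the 10 were lower and 0 higher, beside 2435 of all 15988 tested genes in either direction. MYL7 made up the largest part of the sum. MYH7 fell most, from 962 ± 371 to 394 ± 159 TPM (SD, n = 3 each; log2 fold change -1.27, limma adjusted p = 0.148). Its groups overlapped, and replicate 1 had 99.3 TPM. RYR2 (log2 fold change -1.03, limma adjusted p = 0.0536) was called lower in the authors' deposited table, at an adjusted p-value of 2.3e-04. TNNI1 (log2 fold change 0.42), the marker higher without overlap, NKX2-5 (0.39) and MYH6 (0.14) rose. These cardiomyocyte markers and the markers of other cell types named below were chosen after their values were seen.

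In the scrambled ASO libraries the 10 genes spanned a wide range of levels. PRMT1 was the highest at 115 ± 13.9 TPM (SD, n = 3), followed by NPR3 at 80.8 ± 10.8, DDAH2 at 39.9 ± 16.6, DDAH1 at 16.1 ± 3.75 and PRKG1 at 10.05 ± 0.975 TPM. PDE5A at 8.09 ± 3.32 TPM and NPR1 at 7.18 ± 2.75 TPM came next, then NOS3 at 1.73 ± 1.12 and NOS1AP at 1.48 ± 0.744 TPM. NOS1 was listed at 0 in all 3 libraries. The ranges of the libraries overlapped between PRKG1, PDE5A and NPR1, and between NOS3 and NOS1AP, so the order within those sets is not settled. All other neighbours in the order were separated in every library. Of the 10 genes, 9 reached the mean of 1 TPM required for testing, and NOS1 did not.

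**Figure D1:**
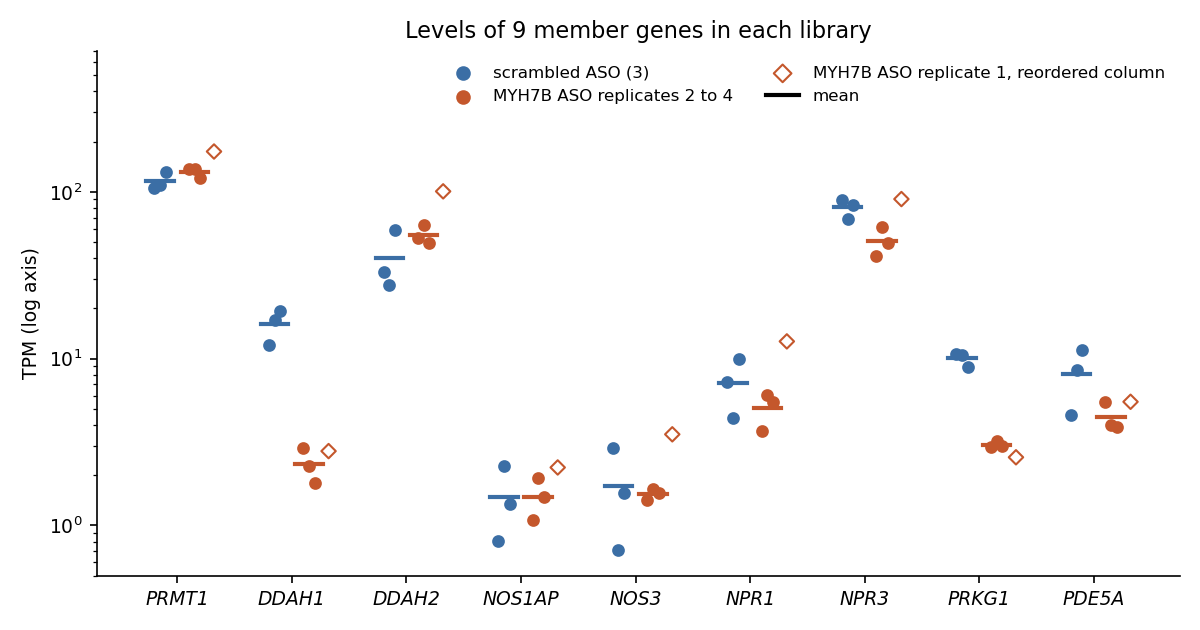
TPM (log axis) of 9 member genes in each library, with blue points for the scrambled ASO, orange points for MYH7B ASO replicates 2 to 4, short bars for group means and open diamonds for the reordered column of MYH7B ASO replicate 1. DDAH1 and PRKG1 lay lower in all MYH7B ASO libraries than in any scrambled ASO library, and NOS1 is not drawn because it was listed at or near 0.

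DDAH1 (ENSG00000153904.20), which hydrolyses asymmetric dimethylarginine to citrulline, lies on the minus strand of chromosome 1 at positions 85318481 to 85578363 in GENCODE 29 on GRCh38. Its level was 12.04, 16.9 and 19.4 TPM with the scrambled ASO and 2.93, 2.27 and 1.81 TPM in MYH7B ASO replicates 2 to 4. The groups stood far apart, with the highest treated library below the lowest control. The mean was 16.1 ± 3.75 TPM (SD, n = 3) against 2.33 ± 0.565 TPM (SD, n = 3), so the treated mean was 14.5% of the control mean. The log2 fold change of TPM + 1, the scale used for all fold changes from the fit, was -2.35 with a standard error of 0.23. MYH7B ASO replicate 1 had 2.79 TPM and lay within the range of the other treated libraries. DDAH1 stood at -2.17 (log2) in the authors' deposited table. On the opposite strand AL078459.1 overlaps the span of DDAH1 by 129644 bases, and reads there cannot be told apart without strand. AC092807.3, a long noncoding RNA gene on the same strand, overlaps that span by 95970 bases, where strand would not separate the reads. In bulk RNA, fewer cells of a type and less RNA per cell cannot be told apart, which holds for every difference given here.

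DDAH2 (ENSG00000213722.9), the close relative of DDAH1 on chromosome 6 (31727038 to 31730617), was 33.3, 27.7 and 58.7 TPM with the scrambled ASO and 52.8, 62.8 and 49.0 TPM with the MYH7B ASO. The groups overlapped, through scrambled ASO replicate 3. The difference of 0.52 on the log2 scale (standard error 0.26) did not pass (limma adjusted p = 0.403). Replicate 1 had 101 TPM. For DDAH2 the authors' deposited table lists 0.45 (log2), with its adjusted p-value at 0.130.

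DDAH1 made up 26.6%, 37.9% and 24.8% of the summed DDAH1 and DDAH2 TPM with the scrambled ASO, against 5.26%, 3.49% and 3.55% in MYH7B ASO replicates 2 to 4 and 2.70% in replicate 1. The summed level was 56.03 ± 19.2 TPM (SD, n = 3) and 57.2 ± 7.23 TPM (SD, n = 3), but 103.3 TPM in replicate 1, above every other library. These shares contain DDAH1 and were not tested. They count transcripts and not enzyme activity.

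DDAH1 transcripts can begin at several positions, and GENCODE 29 lists 5 transcripts of it from 4 starts. The values are sums over the gene, so they do not show which start the RNA came from. The RefSeq table on GRCh38.p14 gives 3 starts for DDAH1 and 2 for PRKG1, the other gene of the 10 that differed most. The reference sequence just before each is printed here 5′ to 3′, cut where an annotated exon of the gene begins, so that a reader can compare the starts. Capitals mark a match to 1 of 4 short motifs, searched on both strands. The first was CATTCC, read by the TEAD factors of muscle genes, and another was the GC box, GGGCGG. The remaining motifs were the TATA box, searched as TATAAA, and the letters AGATAA that GATA factors bind.
DDAH1 start at chr1:85578364-85578450, minus strand: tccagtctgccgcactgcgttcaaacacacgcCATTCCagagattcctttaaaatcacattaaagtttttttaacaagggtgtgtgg
DDAH1 start at chr1:85465160-85465409, minus strand: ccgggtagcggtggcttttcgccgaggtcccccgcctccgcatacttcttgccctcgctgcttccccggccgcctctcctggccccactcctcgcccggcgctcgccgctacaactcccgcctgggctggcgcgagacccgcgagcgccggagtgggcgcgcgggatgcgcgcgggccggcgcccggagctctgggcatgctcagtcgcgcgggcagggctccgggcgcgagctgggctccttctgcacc
DDAH1 start at chr1:85404529-85404756, minus strand: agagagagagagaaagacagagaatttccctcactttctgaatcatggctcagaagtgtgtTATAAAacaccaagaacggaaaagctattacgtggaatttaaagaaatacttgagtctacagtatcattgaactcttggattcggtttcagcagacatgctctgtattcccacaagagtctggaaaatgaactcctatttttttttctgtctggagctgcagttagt
PRKG1 start at chr10:51074237-51074303, plus strand: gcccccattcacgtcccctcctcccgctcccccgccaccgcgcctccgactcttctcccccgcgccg
PRKG1 start at chr10:52046506-52046747, plus strand: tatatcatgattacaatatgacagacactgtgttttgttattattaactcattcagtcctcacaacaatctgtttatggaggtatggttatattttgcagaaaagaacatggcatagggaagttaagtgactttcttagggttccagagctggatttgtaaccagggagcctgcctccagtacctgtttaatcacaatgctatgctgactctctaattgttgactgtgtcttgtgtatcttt

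Over the 250 bases before each start, the farthest upstream start of DDAH1 had 50.0% G and C, and held CATTCC, a motif present in 11.9% of all 35116 windows of that length. The middle start had 76.4% G and C with 36 CG dinucleotides, against medians of 58.0% and 11 over all windows, and held none of the 4 motifs. The start nearest the end of the gene had 38.8% G and C and held TATAAA, present in 10.7% of all windows. The windows of PRKG1 had 66.0% and 38.8% G and C and held none of the 4 motifs. GGGCGG was in 42.6% of all windows and AGATAA in 9.17%. A match is only a match of letters, and these windows were not measured in the study. All 10 genes had at least 1 window in the table, 19 windows in all.

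PRMT1 (ENSG00000126457.21, chromosome 19, 49675786 to 49689029), the main enzyme that makes asymmetric dimethylarginine in proteins, was 105, 109 and 131 TPM with the scrambled ASO. It was 136, 137 and 121 TPM with the MYH7B ASO, so the groups overlapped, and the log2 fold change of 0.19 did not pass (standard error 0.14, limma adjusted p = 0.566). Replicate 1 had 174 TPM. PRMT1 transcripts outnumbered those of DDAH1 by 8.75, 6.45 and 6.75 to 1 with the scrambled ASO and by 46.4, 60.2 and 67.1 to 1 with the MYH7B ASO, a ratio that follows the level of DDAH1. Of the 9 further methylarginine genes listed, 8 were tested and none was called, higher or lower. PRMT5, which makes the symmetric form of the modification, had the highest level among them: 41.04, 44.6 and 49.2 TPM against 62.3, 58.6 and 58.7 TPM. Its groups did not overlap, but the log2 fold change of 0.41 did not pass (standard error 0.13, limma adjusted p = 0.198), while the authors' deposited table called PRMT5 higher with an adjusted p-value of 0.0184. PRMT2 was 39.1 ± 3.92 and 34.1 ± 6.81 TPM (SD, n = 3 each; limma adjusted p = 0.627). AGXT2, the other enzyme known to clear asymmetric dimethylarginine, was listed at 0 in all 7 libraries.

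The nitric oxide synthases themselves were barely detected in these cultures. NOS3 (ENSG00000164867.11, chromosome 7, 150990995 to 151014588), the endothelial synthase, was 2.93, 0.716 and 1.56 TPM with the scrambled ASO and 1.42, 1.65 and 1.57 TPM with the MYH7B ASO. These treated libraries lay inside the range of the controls. Replicate 1, at 3.52 TPM without a correction for its lower mitochondrial share, lay above that range. NOS3 differed by -0.02 on the log2 scale (standard error 0.38, limma adjusted p = 0.986), and its sign turned under several alternatives, among them median-ratio rescaling at 0.02. The 3 prime end of NOS3 overlaps ATG9B on the opposite strand by 2380 bases, and without a stated strand setting reads there cannot be told apart. NOS1, the neuronal synthase, was listed at 0 with the scrambled ASO and at 0.0144 TPM or less in MYH7B ASO replicates 2 to 4. NOS2, the inducible synthase, was at 0.147 TPM or less in all 7 libraries. NOS1, NOS2 and NOS3 together summed to 1.82 ± 1.06 TPM (SD, n = 3) and 1.55 ± 0.108 TPM (SD, n = 3). Endothelial markers were sparse as well: 9 of 12 averaged under 1 TPM over the 6 libraries. ESAM, among those, was listed at 0 with the scrambled ASO and at 0.527, 0.266 and 0.266 TPM in MYH7B ASO replicates 2 to 4. The 3 tested markers had means of 21.8 and 31.9 (EGFL7), 7.87 and 8.50 (KDR) and 10.6 and 4.61 TPM (TEK). TEK did not overlap (limma adjusted p = 0.111), and replicate 1 had 8.84 TPM, inside the control range. The authors' deposited table called TEK lower, at an adjusted p-value of 0.00346. The 12 endothelial markers summed to 37.7 to 49.7 TPM with the scrambled ASO and 37.7 to 57.7 TPM with the MYH7B ASO.

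NOS1AP (ENSG00000198929.13, chromosome 1, 162069774 to 162370475) encodes an adaptor that binds the neuronal synthase and is known from genetic studies of the electrocardiographic QT interval. It was 0.807, 2.28 and 1.35 TPM with the scrambled ASO and 1.07, 1.91 and 1.47 TPM with the MYH7B ASO, with 2.23 TPM in replicate 1. The groups overlapped fully, at a log2 fold change of 0.03 (standard error 0.36, limma adjusted p = 0.975), which turned negative with 1 library left out (-0.17 without scrambled ASO replicate 1 and -0.086 without MYH7B ASO replicate 3). Of 17 listed genes for synthase regulation and the tetrahydrobiopterin cofactor, 13 were tested and none was called. The calmodulin genes were the highest: CALM3 was 359 ± 52.5 against 436 ± 62.6 TPM and CALM2 was 298 ± 56.9 against 335 ± 29.25 TPM (SD, n = 3 each; limma adjusted p = 0.452 and 0.627). GCH1, the first enzyme of cofactor synthesis, averaged 0.246 TPM with the scrambled ASO and was not tested. None of the 5 tested genes of arginine supply was called either. ASS1, which remakes arginine from citrulline, was 215 ± 28.3 and 209 ± 17.3 TPM, and the arginase ARG2 was 25.2 ± 3.85 and 24.9 ± 4.84 TPM (SD, n = 3 each; limma adjusted p = 0.937 and 0.974).

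On the receptor side, NPR3 (ENSG00000113389.16, chromosome 5, 32689070 to 32791724), the clearance receptor that takes up natriuretic peptides without making cyclic GMP, was the most abundant of the receptors. It was 89.8, 68.9 and 83.6 TPM with the scrambled ASO and 41.3, 61.7 and 49.4 TPM with the MYH7B ASO, and the groups did not overlap. The difference of -0.67 on the log2 scale (standard error 0.18) did not pass (limma adjusted p = 0.132). The reordered column of replicate 1, not corrected for its lower mitochondrial share, had 90.4 TPM, just above the highest control at 89.8 TPM. With it the log2 fold change was -0.46 (limma adjusted p = 0.469). In the authors' deposited table NPR3 passed, at -0.53 (log2) and an adjusted p-value of 0.0200. NPR1 (ENSG00000169418.10, chromosome 1, 153678637 to 153693992), the cyclase receptor for NPPA and NPPB, was 7.21, 4.41 and 9.91 TPM against 3.69, 6.04 and 5.49 TPM. The groups overlapped and the log2 fold change of -0.39 did not pass (standard error 0.29, limma adjusted p = 0.583). NPR1 was 12.7 TPM in replicate 1, above every control, and adding that library brought the log2 fold change to -0.094. NPR3 held 85.6% ± 3.13 of the summed NPR1, NPR2 and NPR3 TPM with the scrambled ASO and 79.9% ± 1.59 with the MYH7B ASO (SD, n = 3 each).

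The ligands, the protease and the soluble cyclase subunits come next. Of 13 listed cyclase and natriuretic peptide genes 9 were tested and none was called, although the groups of 5 did not overlap, all lower, beside 14.1% of all tested genes that did not overlap in that direction. NPPA, atrial natriuretic peptide, was 462 ± 105 TPM against 302 ± 58.7 TPM (SD, n = 3 each), a log2 fold change of -0.61 (limma adjusted p = 0.206), with 216 TPM in replicate 1. NPPB, the B-type peptide, named like GUCY1A2 after its values were seen, was 24.7, 9.66 and 18.4 TPM against 7.05, 6.07 and 4.57 TPM, and 1.60 TPM in replicate 1. Its log2 fold change of -1.36 did not pass (standard error 0.32, limma adjusted p = 0.0882). MME, a protease that degrades natriuretic peptides, was 51.2 ± 13.3 against 25.4 ± 11.2 TPM (SD, n = 3 each), a log2 fold change of -1.04 (limma adjusted p = 0.172). Replicate 1 had 47.5 TPM, inside the control range. The authors' deposited table called 3 genes of this list lower: MME, NPPB and GUCY1A2, at adjusted p-values of 0.0209, 0.00754 and 8.3e-04. In that comparison 5.69% of all genes with an adjusted p-value were called lower. Among soluble cyclase subunits, GUCY1A1 was 28.6, 30.2 and 24.4 TPM against 24.1, 20.05 and 17.3 TPM (log2 fold change -0.43, standard error 0.17, limma adjusted p = 0.293). The subunit GUCY1A2 was 3.34, 3.68 and 4.31 TPM against 1.53, 2.10 and 1.88 TPM (log2 fold change -0.75, standard error 0.24, limma adjusted p = 0.197). Their partner GUCY1B1 was 13.3, 11.2 and 14.9 TPM against 16.4, 13.8 and 12.1 TPM (log2 fold change 0.096, standard error 0.18, limma adjusted p = 0.847), a sign that turned with replicate 1 added (-0.014) or with 1 library left out. The ratio of GUCY1A1 to GUCY1B1 was 2.15, 2.70 and 1.63 with the scrambled ASO and 1.47, 1.45 and 1.43 with the MYH7B ASO, and in replicate 1 it was 1.91, inside the control range.

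PRKG1 (ENSG00000185532.19, chromosome 10, 50990891 to 52298350), the cyclic GMP-dependent kinase of smooth muscle and heart, was called, and none of the other 7 tested members besides DDAH1 was. It was 10.7, 10.5 and 8.93 TPM with the scrambled ASO and 2.95, 3.22 and 2.99 TPM with the MYH7B ASO. Both groups were tight and far apart. PRKG1 fell by 1.44 on the log2 scale (standard error 0.18, limma adjusted p = 0.0103), to 30.4% of the control mean. Of all 15988 tested genes, 1.66% were called, 1.48% lower and 0.181% higher, and the groups did not overlap, lower, for 14.1% and, higher, for 7.11%. A count of 1 among 8 members is too small to read against that background. Adding replicate 1, at 2.56 TPM, gave PRKG1 a log2 fold change of -1.49 (limma adjusted p = 0.00956), where 0.967% of all tested genes were called lower and 0.107% higher. Without MYH7B ASO replicate 4 the call was lost (limma adjusted p = 0.0554), and it was kept without any other single library (limma adjusted p from 0.0277 to 0.0427). In the authors' deposited table PRKG1 stood at -1.38 (log2; adjusted p-value 8.1e-11), where 5.69% of genes with an adjusted p-value were lower and 3.02% higher. On the opposite strand CSTF2T lies within the span of PRKG1 and PRKG1-AS1 overlaps it by 67609 bases, and reads there cannot be told apart without strand.

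Several listed neighbours of PRKG1 in the pathway were measured with it. Of 14 listed kinase and target genes 13 were tested, 1 was called lower and none higher. The called gene, KCNMA1, encodes the large-conductance potassium channel that PRKG1 is known to phosphorylate. KCNMA1 was 5.57, 5.34 and 6.26 TPM against 1.07, 1.62 and 2.04 TPM, with no overlap, and fell by 1.40 on the log2 scale (standard error 0.25, limma adjusted p = 0.0340). Replicate 1 had 5.21 TPM, close to the controls, and with it the KCNMA1 call was lost (log2 fold change -1.08, limma adjusted p = 0.237). It was also lost when any 1 of the 6 libraries was left out, scrambled ASO replicates 1, 2 and 3 and MYH7B ASO replicates 2, 3 and 4 alike (limma adjusted p from 0.0839 to 0.107). In the authors' deposited table KCNMA1 stood at -1.22 (log2; adjusted p-value 1.1e-05). The most abundant targets did not pass. PLN, the phospholamban of the calcium store, was 971 ± 118 against 713 ± 81.1 TPM (SD, n = 3 each; log2 fold change -0.44, limma adjusted p = 0.188), and 220 TPM in replicate 1, which moved its log2 fold change to -0.86 when added. TNNI3, cardiac troponin I, was 208 ± 15.8 against 162 ± 37.1 TPM (SD, n = 3 each; log2 fold change -0.39, limma adjusted p = 0.372), and 59.03 TPM in replicate 1, which moved its log2 fold change to -0.74.

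PDE5A (ENSG00000138735.16, chromosome 4, 119494395 to 119628991), the cyclic GMP-specific phosphodiesterase blocked by sildenafil, was 4.59, 8.50 and 11.2 TPM with the scrambled ASO and 5.46, 3.98 and 3.88 TPM with the MYH7B ASO. The groups overlapped because scrambled ASO replicate 1 was low. The difference of -0.68 on the log2 scale (standard error 0.30) did not pass (limma adjusted p = 0.330). In the authors' deposited table PDE5A stood at -0.56 (log2), with its adjusted p-value at 0.110. Replicate 1 had 5.51 TPM.

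Of the 12 listed genes for cyclic GMP hydrolysis and export 8 were tested and 1 was called, PDE3A, which hydrolyses cyclic AMP and is inhibited by cyclic GMP. PDE3A was 9.75, 12.5 and 13.9 TPM with the scrambled ASO and 2.75, 3.46 and 3.81 TPM with the MYH7B ASO. It fell by 1.58 on the log2 scale (standard error 0.21, limma adjusted p = 0.0109), with 1.88 TPM in replicate 1 and a limma adjusted p of 0.0133 when that library was added. In the authors' deposited table PDE3A stood at -1.48 (log2; adjusted p-value 5.8e-13). Without MYH7B ASO replicate 4 the limma adjusted p of PDE3A was 0.0507. ABCC5, a cyclic nucleotide exporter, was 16.2 ± 2.61 and 17.2 ± 4.17 TPM (SD, n = 3 each; limma adjusted p = 0.915).

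The 10 phosphodiesterase genes that hydrolyse cyclic GMP, PDE5A among them, summed to 34.4, 47.2 and 46.6 TPM with the scrambled ASO and 24.96, 28.5 and 23.3 TPM with the MYH7B ASO. The share of PDE3A in that sum was 28.2% ± 1.70 and 13.2% ± 2.79, and that of PDE5A was 18.5% ± 5.33 and 17.5% ± 4.003 (SD, n = 3 each). PDE9A, described after its values were seen, held 20.2% ± 4.15 and 29.4% ± 5.65 (SD, n = 3 each), at levels of 8.84 ± 3.06 and 7.60 ± 2.19 TPM. PDE3A therefore held the largest mean share in the scrambled ASO group and PDE9A in the MYH7B ASO group. The shares were not tested.

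**Figure D2:**
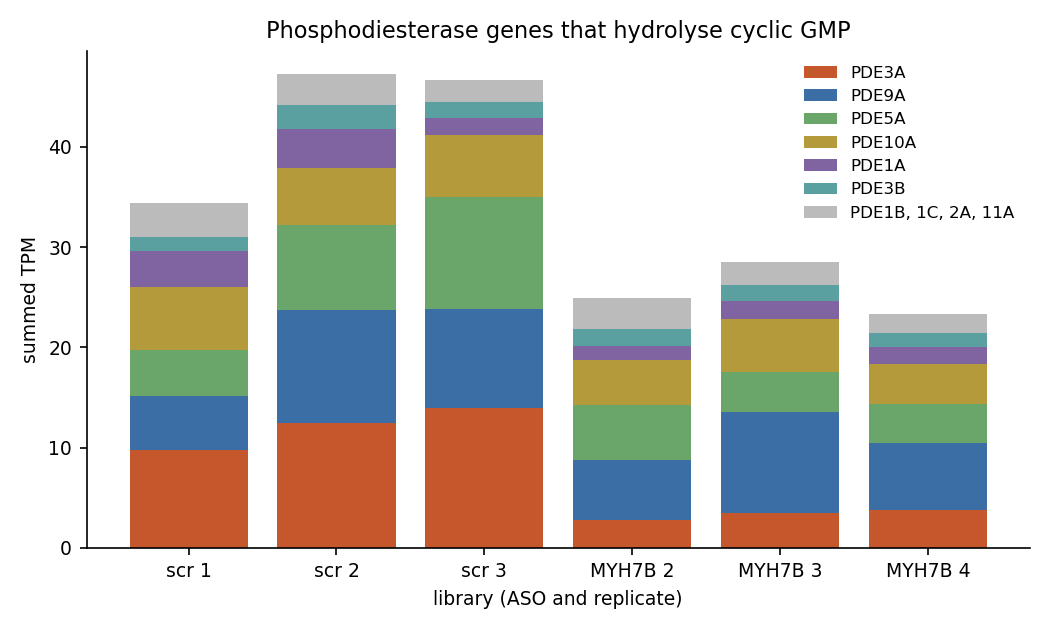
Summed TPM of 10 phosphodiesterase genes that hydrolyse cyclic GMP, as stacked bars for each of the 6 libraries (scr, scrambled ASO; MYH7B, MYH7B ASO; the number is the replicate). The bars sum to 34.4 to 47.2 TPM with the scrambled ASO and 23.3 to 28.5 TPM with the MYH7B ASO, and the PDE3A segment is shorter in each MYH7B ASO library than in any scrambled ASO library.

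The last listed group, enzymes that remove nitrosothiols or keep the cyclase haem reduced, had 5 tested genes and no call. CYB5R3 was 161 ± 24.3 and 130 ± 9.57 TPM and AKR1A1 was 107 ± 26.2 and 103 ± 17.4 TPM (SD, n = 3 each; limma adjusted p = 0.397 and 0.963). Over all 7 lists, 61 of 76 genes were tested, 2 were called lower (PDE3A and KCNMA1) and none higher, beside the 1.48% and 0.181% of all tested genes. At an unadjusted p under 0.05, 11 of the 61 were lower and 4 higher, beside 2435 of all 15988 in either direction. Their median log2 fold change was -0.037, against -0.044 for all tested genes, and the groups did not overlap for 16 genes lower and 6 higher, beside 14.1% and 7.11% of all tested genes. With replicate 1 added 1 of the listed genes, PDE3A, was called. The authors' deposited table called 5 of 64 listed genes lower and 3 higher, beside 5.69% and 3.02% of all its genes with an adjusted p-value. The 3 higher were PRMT5, SLC7A2 and CRIP2, at adjusted p-values of 0.0184, 0.0170 and 0.00132.

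**Figure D3:**
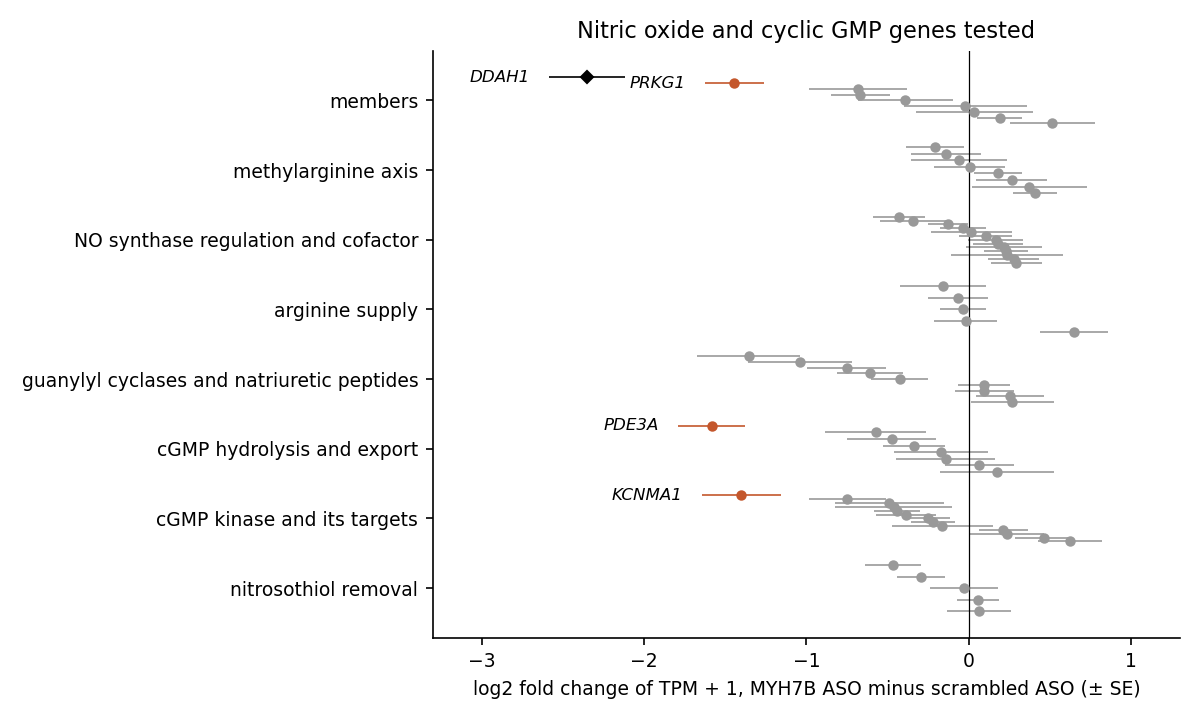
Log2 fold change of TPM + 1 (MYH7B ASO minus scrambled ASO, bars show the standard error) for 9 members and 61 further pathway genes, grouped by list. Orange points are genes with a limma adjusted p under 0.05, the black diamond is DDAH1, shown without a test, and PRKG1, PDE3A and KCNMA1 lie between -1.40 and -1.58.

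Some markers of other cell types differed between the same libraries. PRKG1, KCNMA1 and PDE3A are all well known in smooth muscle. The 9 smooth muscle markers summed to 1067 to 1468 TPM with the scrambled ASO and 653 to 855 TPM with the MYH7B ASO, and 1 of the 9 was called lower and none higher, where 1.48% and 0.181% of all tested genes were. That gene, MYH11, named after its values were seen, was 58.6, 74.2 and 77.6 TPM against 7.64, 15.6 and 15.4 TPM (log2 fold change -2.41, limma adjusted p = 0.00599), and it was 13.4 TPM in replicate 1. The 11 fibroblast markers summed to 2946 to 5324 TPM and 1404 to 2157 TPM, with 2 of 10 tested called lower, COL1A2 and LUM, and none higher. Both calls were lost with replicate 1 added (limma adjusted p = 0.207 and 0.391). The groups did not overlap for 5 fibroblast markers lower and 2 higher, and for 4 smooth muscle markers lower and 0 higher. Of all tested genes 14.1% did not overlap, lower, and 7.11%, higher. The 2 higher fibroblast markers were PDGFRA (log2 fold change 0.60) and TCF21 (0.71), and neither passed (limma adjusted p = 0.152 and 0.168). PDGFRA was 26.5 TPM in replicate 1, inside the control range. DPT was listed at 0 in all 7 libraries. In the comparison deposited by the authors, 4 of 10 fibroblast markers were called lower and 2 higher. The lower were COL1A2, LUM, COL1A1 and COL3A1, at adjusted p-values of 2.4e-09, 1.7e-07, 6.2e-06 and 5.0e-04. The higher were PDGFRA and TCF21, at 0.00287 and 0.00270. Of 9 smooth muscle markers, MYH11, TAGLN and ACTA2 were called lower there (8.4e-19, 1.3e-06 and 0.00463) and 0 higher. Of all its genes with an adjusted p-value, 5.69% were lower and 3.02% higher. In replicate 1 the sums were 1296 TPM for smooth muscle and 4236 TPM for fibroblast markers, both inside the control ranges. They carry no correction for the mitochondrial share, 17.2% there and 27.4% to 33.2% in the controls. Their place against the controls depends on that share. DDAH1, PRKG1 and PDE3A were as low in replicate 1 as in the other treated libraries or lower. KCNMA1, at 5.21 TPM in replicate 1, was near the controls. The part of other cell types in the differences at DDAH1, PRKG1, PDE3A and KCNMA1 was not tested.

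The members also differ in genomic span, a feature that their choice did not use. PRKG1 covers 1307460 bases, NOS1AP 300702, DDAH1 259883, PDE5A 134597 and NPR3 102655, whereas NOS3, NPR1 and PRMT1 cover 23594, 15356 and 13244 bases and DDAH2 3580. Among all tested genes with a span, 5.26% of the 2813 over 100 kb were called lower, against 0.804% of the 8704 from 10 to 100 kb and 0.392% of the 4335 under 10 kb. The medians of their log2 fold changes were -0.31, -0.037 and 0.090. Each of the called member and pathway genes, PRKG1, PDE3A and KCNMA1, was in the class over 100 kb, while MYH7B covers 27035 bases. That class held 18 tested pathway genes in all, with a median log2 fold change of -0.24, and NOS1AP, at 0.03. Span is set beside the differences as a description, and its part in them was not tested.

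**Figure D4:**
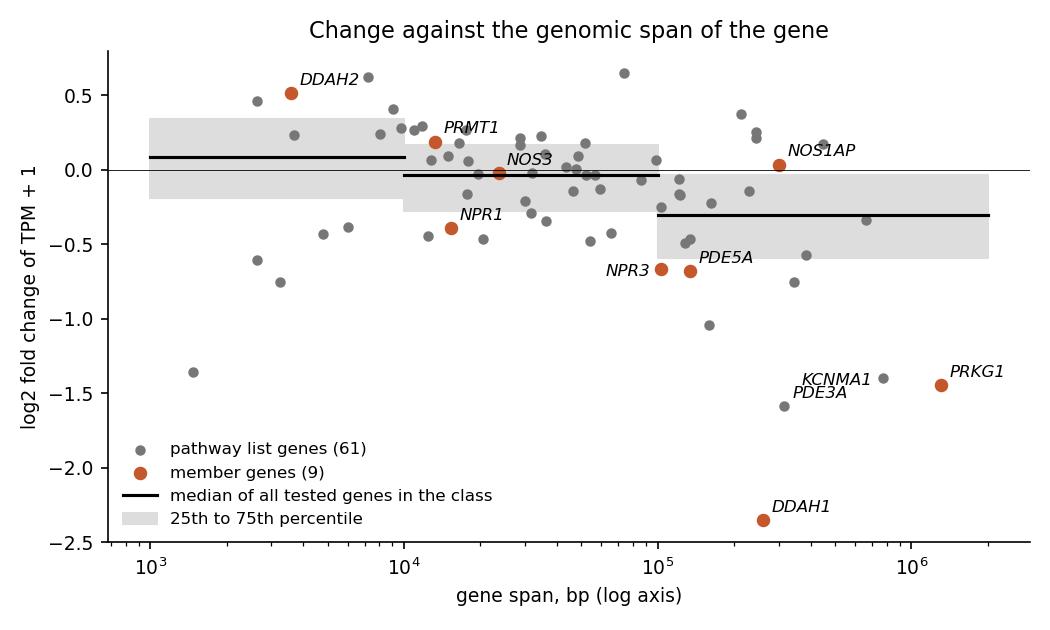
Log2 fold change of TPM + 1 against genomic span in base pairs (log axis) for 9 members (orange) and 61 pathway genes (grey). Black lines and grey bands give the median and the 25th to 75th percentile of all tested genes under 10 kb, from 10 to 100 kb and over 100 kb, with medians of 0.090, -0.037 and -0.31. PRKG1, PDE3A, KCNMA1 and DDAH1 lie below the band of the longest class, and so do MME, GUCY1A2, PDE5A and NPR3.

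The genes whose pattern over the 6 libraries was closest to that of DDAH1 were found among 10385 others with a mean of at least 5 TPM, by the root mean square difference of log2(TPM + 1) centred on each gene's own mean. They were COL6A3 (0.17), a collagen VI chain, MEIS3 (0.22), a homeobox factor, GPC6 (0.22), a glypican, THSD4 (0.24), a microfibril protein, and TRAPPC9 (0.26), a vesicle tethering factor. COL6A3 was 57.1 ± 12.4 and 9.39 ± 0.264 TPM (SD, n = 3 each) and GPC6 was 12.3 ± 3.28 and 0.951 ± 0.178 TPM (SD, n = 3 each). In replicate 1 COL6A3 was 20.5 TPM and GPC6 0.737 TPM. The likeness was chosen on the same libraries and is a description.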

How the data were processed

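The deposited expression table holds TPM made by the authors, each column summing to 1000000, in 7 libraries named by the description labels; the quantifier and annotation release are not given in the sources used here. The submitters' processing notes name DESeq2 and GRCh38.p13 without a role. The authors' deposited comparison table holds, per the file headers, a mean normalized count (signal), log2 fold changes and their errors, a score from the test, and p-values raw and adjusted; which libraries entered it is not stated.

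The column of MYH7B ASO replicate 1 fills 58721 of 60234 rows. In deposited order its median correlation with the other libraries, across genes, was 0.408. Assigned to the sorted gene identifiers of GENCODE 29, which has as many genes, it was 0.955, against 0.959 to 0.979 between the other 6. It entered only as an alternative, over 58072 genes.

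The 15988 genes averaging 1 TPM or more in the 6 libraries entered limma 3.58.1 (R 4.3.3; lmFit, eBayes with trend) as log2(TPM + 1). No covariate was used, and p-values were adjusted by Benjamini-Hochberg; called means an adjusted p under 0.05. The fit was tested on simulated data. Tables and plots came from Python 3.11.15 (pandas 2.3.3, matplotlib 3.10.9). The members, lists, tests and rule for named genes were chosen with earlier results of these data known. Named are the members, MYH7B, in each list the called genes and the 2 with the highest control mean, GUCY1A1 and GUCY1B1, and the 5 genes most like DDAH1. Gene positions are from GENCODE 29, promoters from RefSeq on GRCh38.p14. IRAG1 was matched by its older symbol. Replicate numbers in the titles (2 shared pairs among the 6 libraries, with correlations of deviations of 0.0759 and 0.110) were used only for an alternative. Alternatives were other pseudocounts, filters, scalings and variance settings, removal of mitochondrially encoded genes, replicate blocks, and leaving out each library.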

Additional observations from a re-analysis of the deposited data

Results flagged for a closer look

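In the MYH7B ASO group of 4 libraries, which includes the reordered column of replicate 1, 32 measures, the named genes and the marker sums, were checked for a single library apart from the rest. NOS3 was the 1 measure that had one: 3.52 TPM in MYH7B ASO replicate 1, against 1.42 to 1.65 TPM in the other 3. Chance gives about 1 such case in 20 groups.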

How the results depend on the processing

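The log2 fold change of DDAH1 stayed negative under all 18 alternatives, from -2.74 with a pseudocount of 0.1 to -1.51 with a pseudocount of 5. DDAH1 was picked for its fall in these same libraries, so the kept sign is a description and not a test. The limma fit called 265 genes, 236 lower and 29 higher, with 2435 at an unadjusted p under 0.05. Among the called genes were 1 member, PRKG1, and 2 pathway genes, and DDAH1 is left out of every count of members called.

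Without a filter on low values, which tests 32966 genes, 40 were called, 38 lower and 2 higher, with 0 members besides DDAH1 and 0 pathway genes (limma adjusted p of PRKG1 0.0630, PDE3A 0.0779). A minimum mean of 5 TPM left 1 pathway gene called, since KCNMA1 was then not tested. Without an intensity trend 150 were called, 134 lower and 16 higher. Median-ratio rescaling gave 58 higher calls and quantile normalization 55, which put the lower share at 78.6% in both; quantile normalization left 1 pathway gene called (limma adjusted p of KCNMA1 0.0581). With replicate 1 reordered 170 were called, 153 lower and 17 higher, with 1 pathway gene. When 1 library was left out the calls ran from 53 to 149, lower from 47 to 132, higher from 6 to 28, members besides DDAH1 from 0 to 1 and pathway genes from 0 to 2, the fewest without MYH7B ASO replicate 4.

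With the replicate block by title number or by description number 0 genes were called, 0 lower and 0 higher, 0 members and 0 pathway genes, at 1718 and 1096 genes with an unadjusted p under 0.05. PRKG1 then had -1.39 (limma adjusted p = 0.342) and -1.38 (limma adjusted p = 0.720). No label says that same-numbered libraries share a culture, and the title pairs had correlations of deviations of 0.0759 and 0.110, the description pairs -0.073 and -0.039. Under the title block the signs turned for NOS3 (0.27), NOS1AP (-0.17), ASS1 (0.020), ARG2 (0.24) and ABCC5 (-0.018), and under the description block for NOS3 (0.32), NOS1AP (-0.048), ASS1 (0.042) and ABCC5 (-0.24).

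Other signs turned for genes near 0. NOS3 was 0.040 with a pseudocount of 0.1, 0.020 with median ratios, 0.098 with quantiles, 0.0084 without mitochondrially encoded genes, 0.086 with array weights and 0.19 with replicate 1. ASS1 was 0.034 with median ratios, 0.014 with array weights and 0.079 with replicate 1. ARG2 was 0.045 with median ratios, 0.042 with quantiles, 0.0062 without mitochondrially encoded genes and 0.026 with array weights. AKR1A1 was 0.037 with median ratios and 0.056 with replicate 1, ABCC5 -0.016 with array weights and -0.035 with replicate 1, and GUCY1B1 -0.014 with replicate 1. With 1 library left out NOS3 ran from -0.32 to 0.28, NOS1AP from -0.17 to 0.26, ASS1 from -0.14 to 0.045, ARG2 from -0.13 to 0.14, ABCC5 from -0.11 to 0.20, AKR1A1 from -0.23 to 0.13 and GUCY1B1 from -0.010 to 0.19. The cause of these moves was not tested. Depth is unknown, so low genes such as NOS1, NOS3 and NOS1AP rest on the spread of 3 libraries alone.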

Other observations

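Of the 76 listed pathway genes 61 were tested. Among the rest, a pair of genes with low means was picked after the values were seen because their groups did not overlap. The share of all untested genes without overlap was not counted, so the pair is a description of values near the floor. CAV3, a muscle caveolin that binds nitric oxide synthases, was 1.01, 1.40 and 2.47 TPM with the scrambled ASO and 0.0869, 0.401 and 0.0751 TPM in MYH7B ASO replicates 2 to 4, with 0.313 TPM in replicate 1. PDE1C, a calcium-activated phosphodiesterase, was 0.479, 0.672 and 0.566 TPM against 0.408, 0.137 and 0.0790 TPM, with 0.0219 TPM in replicate 1. The groups of SLC7A2, an arginine transporter with 18.2, 26.2 and 16.2 TPM against 37.9, 27.7 and 29.9 TPM, did not overlap in the 6 libraries (limma adjusted p = 0.198). Replicate 1 had 17.4 TPM, inside the control range. The authors' deposited table called SLC7A2 higher, at 0.60 (log2) and an adjusted p-value of 0.0170.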
